A study of Mus musculus with 12 samples.

Results

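The 31 genes described here encode enzymes and regulators that build cholesterol, fatty acids, triglycerides and phosphatidylcholine. They were chosen by name and role, by a rule that uses no measured value, though with earlier results of these data known: Hmgcs1, Mvk, Mvd, Idi1, Fdps and Fdft1 of the mevalonate pathway; Sqle, Lss, Cyp51, Msmo1, Nsdhl and Dhcr7 of the steps that close and trim the sterol ring; Insig1, Srebf2 and Stard4 of sterol control and transport; Acly, Me1, Acaca, Fasn, Scd1, Scd2, Elovl1, Elovl5, Elovl6 and Srebf1 of fatty acid synthesis; and Gpam, Lpin1, Dgat1, Dgat2, Pcyt1a and Chka of glycerolipid synthesis. All 31 members were measured among 18193 genes. Each gene is represented by the probe set annotated to that gene alone with the highest mean over the 12 arrays, and 25 of the members have several probe sets.

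The study measured RNA from type II alveolar epithelial cells, the lung cells that make surfactant, after isolation from mice that lack alpha subunits of heterotrimeric G proteins. The 4 groups of 3 arrays are cells without Gna11 (Gna11 ko), without Gnaq and Gna11 (Gnaq/Gna11 ko, written Gnaq/Ga11 ko in the sample titles), without Gna12 (Gna12 ko), and without Gna12 and Gna13 (Gna12/Gna13 ko, written Gna12/Ga13 ko). No group of wild-type cells was analysed here, so each double knockout is set against a single knockout that already lacks 1 of its genes, and the 6 arrays without Gna11 are set against the 6 without Gna12. All cells were cultured untreated for 7 days on collagen in a bronchial epithelial growth medium with keratinocyte growth factor and without hydrocortisone. Strain, age and sex of the mice, and whether the deletions were made in the whole animal or by a Cre in some cells, are not stated in the labels. Nothing in the labels ties the 3 replicates of a genotype to different mice or dishes, so p-values measure only the spread between these samples. The position number in the sample labels is 2 for every array without Gna11 and 4 for every array without Gna12, so position and genotype line cannot be told apart.

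Cells make cholesterol from acetyl-CoA through the mevalonate pathway and squalene, and they make fatty acids from the same precursor through malonyl-CoA. Both branches are controlled by SREBP transcription factors, which Srebf1 and Srebf2 encode and which INSIG proteins hold back when sterols are plentiful. Type II cells draw on both branches for surfactant, a mixture rich in dipalmitoyl phosphatidylcholine and cholesterol that they store in lamellar bodies. G proteins of the Gq/11 and G12/13 families carry signals from cell-surface receptors into the cell.

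Values are log2 RMA values, a normalised probe intensity, so a difference of 1 is a doubling. Array medians ran from 5.03 to 5.11, and arrays of 1 group correlated at 0.963 or more. For each of Gnaq, Gna11, Gna12 and Gna13, 1 of its probe sets (7, 2, 5 and 7 on the array) was lower in every array lacking that gene than in every other array. All 11 measured type II markers stood above 5.11 in all 12 arrays, Sftpc (surfactant protein C) at 12.78 to 13.38. All 10 measured leukocyte markers, 7 of 10 macrophage markers (not Mrc1, Siglecf or C1qa) and 6 of 7 type I cell markers did so too. So did 7 of 8 airway markers (not Trp63), 4 of 8 fibroblast markers and 4 of 6 endothelial markers. The airway marker Scgb1a1 stood at 13.12 to 13.28. The mean of the leukocyte markers was 9.64 ± 0.36 (SD, n = 3) in Gna11 ko, 10.52 ± 0.10 in Gnaq/Gna11 ko, 10.92 ± 0.27 in Gna12 ko and 10.67 ± 0.39 in Gna12/Gna13 ko. Eif2s3y, which is Y-linked, was low in all Gnaq/Gna11 ko arrays (3.33 to 3.54) and in replicate 2 of the other groups (3.07 to 3.56), and it was at 6.91 to 7.37 in the remaining 6 arrays.

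The promoter sequences of 5 members are shown, as RefSeq gives the 250 bases before the gene's start on GRCm38.p6: Lss, Nsdhl, Gpam and Fasn, which were lower in the arrays without Gna12, and Hmgcs1, one of the members whose promoter holds a match to the sterol regulatory element. Capitals mark matches on either strand to TCACNCCAC (the element bound by SREBP), CCAAT (bound by NF-Y; ATTGG on the other strand) and GGGCGG (the core of a GC box; CCGCCC on the other strand); in Fasn a pair of CCAAT matches on opposite strands overlaps. The coordinates are chr13:119690101-119690350 on the plus strand for Hmgcs1, chr10:76531355-76531604 on the plus strand for Lss, chrX:72918271-72918520 on the plus strand for Nsdhl, chr11:120824548-120824797 on the minus strand for Fasn, and chr19:55127239-55127488 on the minus strand for Gpam, the first of 2 windows listed for it.
Hmgcs1: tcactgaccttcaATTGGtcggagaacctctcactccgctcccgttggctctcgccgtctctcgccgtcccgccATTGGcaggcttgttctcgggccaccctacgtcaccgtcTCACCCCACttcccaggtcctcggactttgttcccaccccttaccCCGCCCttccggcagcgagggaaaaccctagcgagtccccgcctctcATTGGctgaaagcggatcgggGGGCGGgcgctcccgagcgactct
Lss: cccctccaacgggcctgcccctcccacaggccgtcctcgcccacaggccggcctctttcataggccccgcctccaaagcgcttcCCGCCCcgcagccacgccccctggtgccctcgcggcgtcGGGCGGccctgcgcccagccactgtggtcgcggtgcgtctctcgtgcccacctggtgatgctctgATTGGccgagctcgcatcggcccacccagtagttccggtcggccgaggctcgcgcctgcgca
Nsdhl: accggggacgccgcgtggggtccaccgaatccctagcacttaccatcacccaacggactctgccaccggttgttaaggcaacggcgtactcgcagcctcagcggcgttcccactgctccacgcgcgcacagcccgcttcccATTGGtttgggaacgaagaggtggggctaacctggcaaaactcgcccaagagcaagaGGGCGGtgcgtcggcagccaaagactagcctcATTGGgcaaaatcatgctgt
Fasn: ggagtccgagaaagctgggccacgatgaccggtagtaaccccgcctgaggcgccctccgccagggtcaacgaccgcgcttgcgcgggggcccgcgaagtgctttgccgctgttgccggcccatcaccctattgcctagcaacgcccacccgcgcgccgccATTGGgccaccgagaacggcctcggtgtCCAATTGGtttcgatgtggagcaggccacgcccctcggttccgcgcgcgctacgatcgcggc
Gpam: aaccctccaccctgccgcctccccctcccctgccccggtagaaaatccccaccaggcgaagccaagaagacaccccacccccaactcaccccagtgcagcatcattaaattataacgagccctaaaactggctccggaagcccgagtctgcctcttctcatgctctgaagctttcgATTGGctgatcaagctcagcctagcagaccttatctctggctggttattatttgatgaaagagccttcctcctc

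Windows of 300 bases, 250 before to 50 after the start, were listed for 23 of the 31 members. TCACNCCAC was found in 2 of the 23, Hmgcs1 and Pcyt1a (8.7%, against 1.44% of all 27025 genes with a window). CCAAT was found in 19 (82.6%, against 41.1%), GGGCGG in 18 (78.3%, against 38.2%), and the E-box CACGTG in 3, Dhcr7, Elovl5 and Insig1 (13%, against 8.09%), searched on both strands. These matches are letters in a window and were not tested as binding sites.

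Gpam, Me1, Lss, Nsdhl, Fasn, Elovl5, Acly and Elovl1 were lower in the cells without Gna12 than in those without Gna11, Dgat2 was higher, and the other 22 members were not called. Of the 31 members, 9 were called (limma, adjusted p under 0.05), or 29%, against 12.3% of all genes. They were 8 lower members (25.8%, against 5.86% of all genes) and 1 higher member (6.48% of all genes). The median difference was -0.23 over the members and -0.05 over all genes, and 7 members had a positive difference (22.6%, against 41.3%). By role, 5 of 10 fatty acid genes, 2 of 6 sterol ring genes and 1 of 6 glycerolipid genes fell, 1 glycerolipid gene rose, and none of the 6 mevalonate and 3 sterol control genes was called. Only Gpam and Elovl1 had no overlap between the 6 and 6 arrays (6.45% of members, against 5.74% of all genes in either direction and 3.22% lower).

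**Figure D1:**
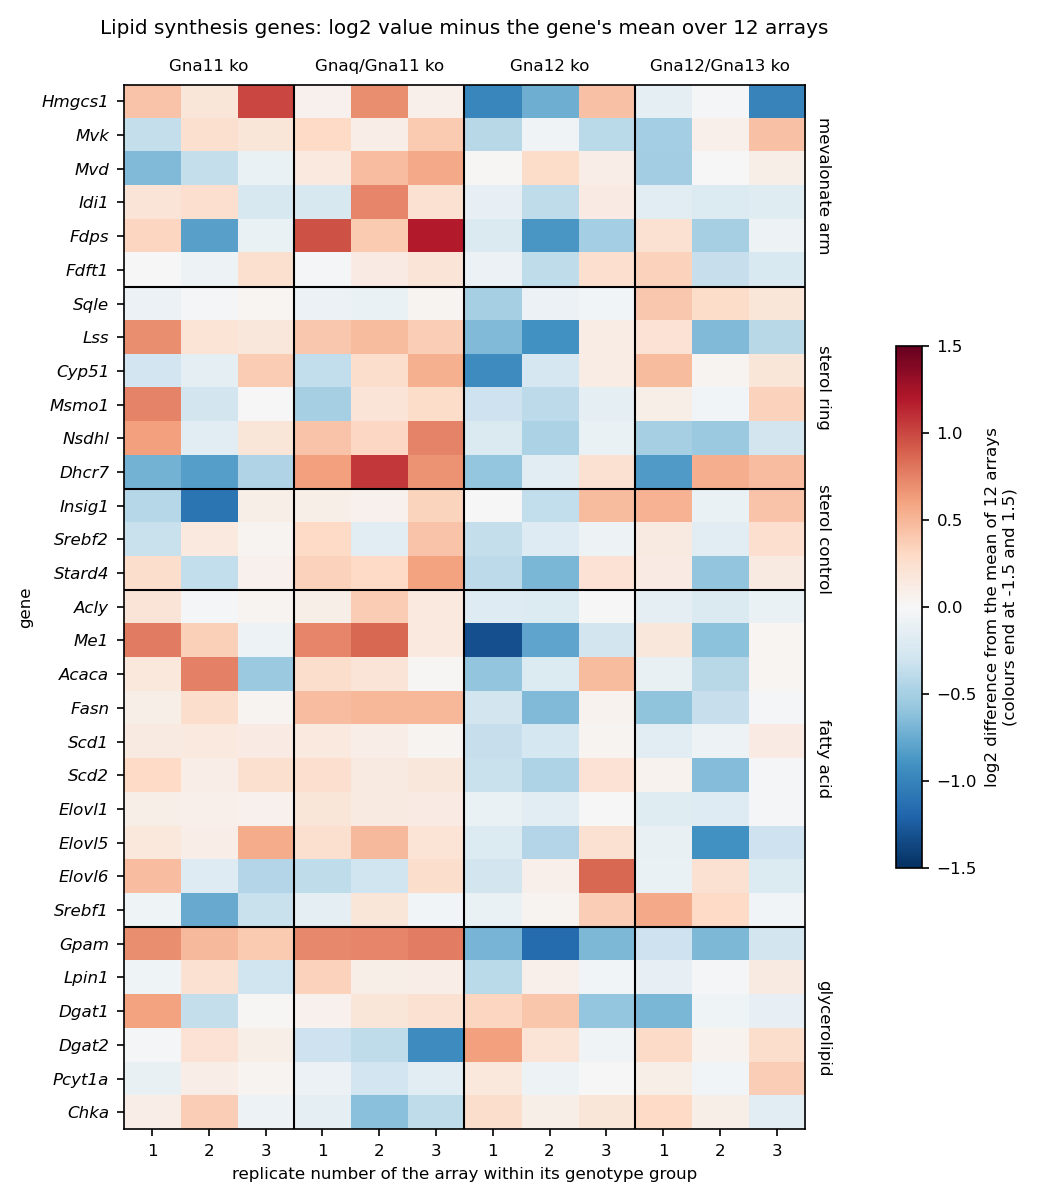
Log2 RMA value of each of the 31 members (rows, by role) in each of the 12 arrays (columns, by group), as the difference from that gene's mean over the arrays. Gpam is above its mean in all 6 arrays without Gna11 and below it in all 6 without Gna12, while rows such as Sqle and Dhcr7 split in other ways.

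Gpam encodes the mitochondrial acyltransferase that puts the first fatty acid on glycerol-3-phosphate, the entry to triglyceride and phospholipid synthesis. Its level was 10.70, 10.48 and 10.39 in Gna11 ko replicates 1 to 3 and 10.72, 10.72 and 10.76 in Gnaq/Gna11 ko. It was 9.30, 8.84 and 9.32 in Gna12 ko and 9.68, 9.31 and 9.72 in Gna12/Gna13 ko. All 6 arrays without Gna12 thus lay below all 6 without Gna11, with the lowest value in Gna12 ko replicate 2. The difference was -1.27 ± 0.12 (SE), a 2.41-fold lower level, with an adjusted p of 0.000229. Gpam's second probe set, at a mean of 5.45 over the arrays, gave -0.28 ± 0.15 and was not called (adjusted p 0.272 over probe sets). Of the 6 glycerolipid genes it alone fell.

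Fasn encodes fatty acid synthase, which makes palmitate. Its level was 11.70, 11.88 and 11.65 in Gna11 ko and 12.07, 12.11 and 12.11 in Gnaq/Gna11 ko. It was 11.33, 10.95 and 11.67 in Gna12 ko and 11.01, 11.27 and 11.58 in Gna12/Gna13 ko. Only Gna12 ko replicate 3, at 11.67, reached above the lowest array without Gna11, at 11.65. The difference was -0.62 ± 0.12, a 1.53-fold lower level (adjusted p 0.0106).

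Elovl1, an elongase of very long chains, differed little in size but separated the arrays cleanly. Its level was 13.11, 13.10 and 13.09 in Gna11 ko and 13.20, 13.15 and 13.15 in Gnaq/Gna11 ko. It was 12.92, 12.85 and 13.02 in Gna12 ko and 12.84, 12.83 and 12.99 in Gna12/Gna13 ko. The groups did not overlap, and the difference was -0.23 ± 0.037, or 1.17-fold (adjusted p 0.00437). The same gene's other 3 probe sets gave -0.30, -0.30 and -0.92, all called over probe sets.

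Acly, Me1 and Elovl5 were the remaining fatty acid genes that fell. Acly, which splits citrate into the acetyl-CoA used by both branches, was at 10.66, 10.43 and 10.51 in Gna11 ko, 10.55, 10.85 and 10.61 in Gnaq/Gna11 ko, 10.27, 10.26 and 10.47 in Gna12 ko, and 10.32, 10.25 and 10.37 in Gna12/Gna13 ko. The difference was -0.28 ± 0.081 (1.21-fold, adjusted p 0.0461), and the groups overlapped only through Gna12 ko replicate 3 and Gna11 ko replicate 2. Over Acly's 6 probe sets the difference ran from -0.28 to -0.02, with none called over probe sets. In Gna12 ko minus Gna11 ko 1 of the 6 was positive, at 0.74. Acly's call was lost in 17 of 26 other fits, among them that of the mean of its probe sets. Me1, the malic enzyme that supplies NADPH, was at 8.25, 7.82 and 7.38 in Gna11 ko, 8.19, 8.32 and 7.61 in Gnaq/Gna11 ko, 6.14, 6.68 and 7.19 in Gna12 ko, and 7.64, 6.85 and 7.49 in Gna12/Gna13 ko. Its difference was -0.93 ± 0.24 (1.91-fold, adjusted p 0.0288), with Gna12/Gna13 ko replicates 1 and 3 inside the range of the arrays without Gna11. A second Me1 probe set gave -0.48 (adjusted p 0.261 over probe sets). It was at 6.45, 6.36 and 6.39 in Gna11 ko and 8.66, 6.75 and 7.93 in Gnaq/Gna11 ko. In Gna12 ko it was at 6.57, 6.75 and 6.59, and in Gna12/Gna13 ko at 6.56, 6.51 and 6.66. The Gna11 ko arrays were thus not above those without Gna12 by that probe set. Elovl5, which lengthens polyunsaturated chains, was at 10.43, 10.38 and 10.83 in Gna11 ko, 10.51, 10.76 and 10.48 in Gnaq/Gna11 ko, 10.06, 9.83 and 10.505 in Gna12 ko, and 10.16, 9.36 and 9.96 in Gna12/Gna13 ko. Its difference was -0.58 ± 0.16 (1.50-fold, adjusted p 0.0384), and Gna12 ko replicate 3 alone overlapped the arrays without Gna11.

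The other 5 fatty acid genes did not pass. Scd1 and Scd2, the desaturases that make oleate and palmitoleate, had differences of -0.23 (adjusted p 0.0574) and -0.39 (adjusted p 0.0828). Acaca, the acetyl-CoA carboxylase, differed by -0.27 (95% interval -0.79 to 0.24), Elovl6 by 0.19 and Srebf1 by 0.38 (adjusted p 0.148). A second Scd1 probe set behaved otherwise. It was at 10.03, 10.04 and 10.04 in Gna11 ko, 11.09, 10.70 and 10.81 in Gnaq/Gna11 ko, 7.90, 8.53 and 9.45 in Gna12 ko, and 8.18, 8.59 and 9.74 in Gna12/Gna13 ko. All 6 arrays without Gna12 lay below all others, and the difference was -1.72 ± 0.29 (adjusted p 0.00737 over all probe sets). The main Scd1 probe set sat between 11.69 and 12.18 in all 12 arrays, so the size of the Scd1 difference depends on the probe set.

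Dgat2, which adds the last fatty acid to a triglyceride, was the 1 member that rose. It was at 10.79, 11.03 and 10.90 in Gna11 ko and 10.51, 10.43 and 9.88 in Gnaq/Gna11 ko. It was at 11.43, 11.02 and 10.76 in Gna12 ko and 11.11, 10.87 and 11.09 in Gna12/Gna13 ko. The lowest values were those of the Gnaq/Gna11 ko, and the Gna11 ko arrays lay among those without Gna12. The difference was 0.46 ± 0.13, or 1.37-fold (adjusted p 0.0493). Dgat2's second probe set gave -0.01, and its call held in 2 of the 12 fits that left out 1 array. Dgat1, Lpin1, Pcyt1a (which catalyses the rate-limiting step of phosphatidylcholine synthesis) and Chka (choline kinase) were not called, with differences of -0.24, -0.13, 0.17 and 0.25. Lpin1's second probe set gave -0.91 (adjusted p 0.0353 over probe sets).

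In the sterol branch Nsdhl and Lss fell. Nsdhl, a dehydrogenase that removes methyl groups from the sterol ring, was at 7.81, 7.04 and 7.39 in Gna11 ko, 7.63, 7.51 and 7.95 in Gnaq/Gna11 ko, 6.98, 6.72 and 7.10 in Gna12 ko, and 6.70, 6.65 and 6.93 in Gna12/Gna13 ko. Gna12 ko replicate 3 and Gna11 ko replicate 2 alone overlapped, and the difference was -0.71 ± 0.16 (1.63-fold, adjusted p 0.0187). Lss, which folds squalene epoxide into lanosterol, was at 9.21, 8.73 and 8.69 in Gna11 ko, 8.91, 8.99 and 8.89 in Gnaq/Gna11 ko, 7.85, 7.61 and 8.63 in Gna12 ko, and 8.73, 7.85 and 8.10 in Gna12/Gna13 ko. Gna12/Gna13 ko replicate 1 alone reached into the range of the arrays without Gna11, and the difference was -0.77 ± 0.21 (1.71-fold, adjusted p 0.035). Lss's other probe sets gave -0.14 and -0.21. Sqle, Cyp51, Msmo1 and Dhcr7 differed by 0.07, -0.13, -0.15 and -0.12 and were not called.

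None of the mevalonate genes was called, and all 6 differences were negative. Hmgcs1, which makes HMG-CoA, differed by -0.82 ± 0.28 (adjusted p 0.0756) and Fdps, the farnesyl diphosphate synthase, by -0.65 ± 0.23 (adjusted p 0.0839). Over Hmgcs1's 5 probe sets the difference ran from -0.82 to 0.01, 4 of them negative. Mvk, Idi1, Fdft1 and Mvd gave -0.29, -0.31, -0.15 and -0.02. Among the control genes, Stard4, a cytosolic sterol carrier, gave -0.40 (adjusted p 0.209), Srebf2 gave -0.13 and Insig1 gave 0.32 (adjusted p 0.32).

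**Figure D2:**
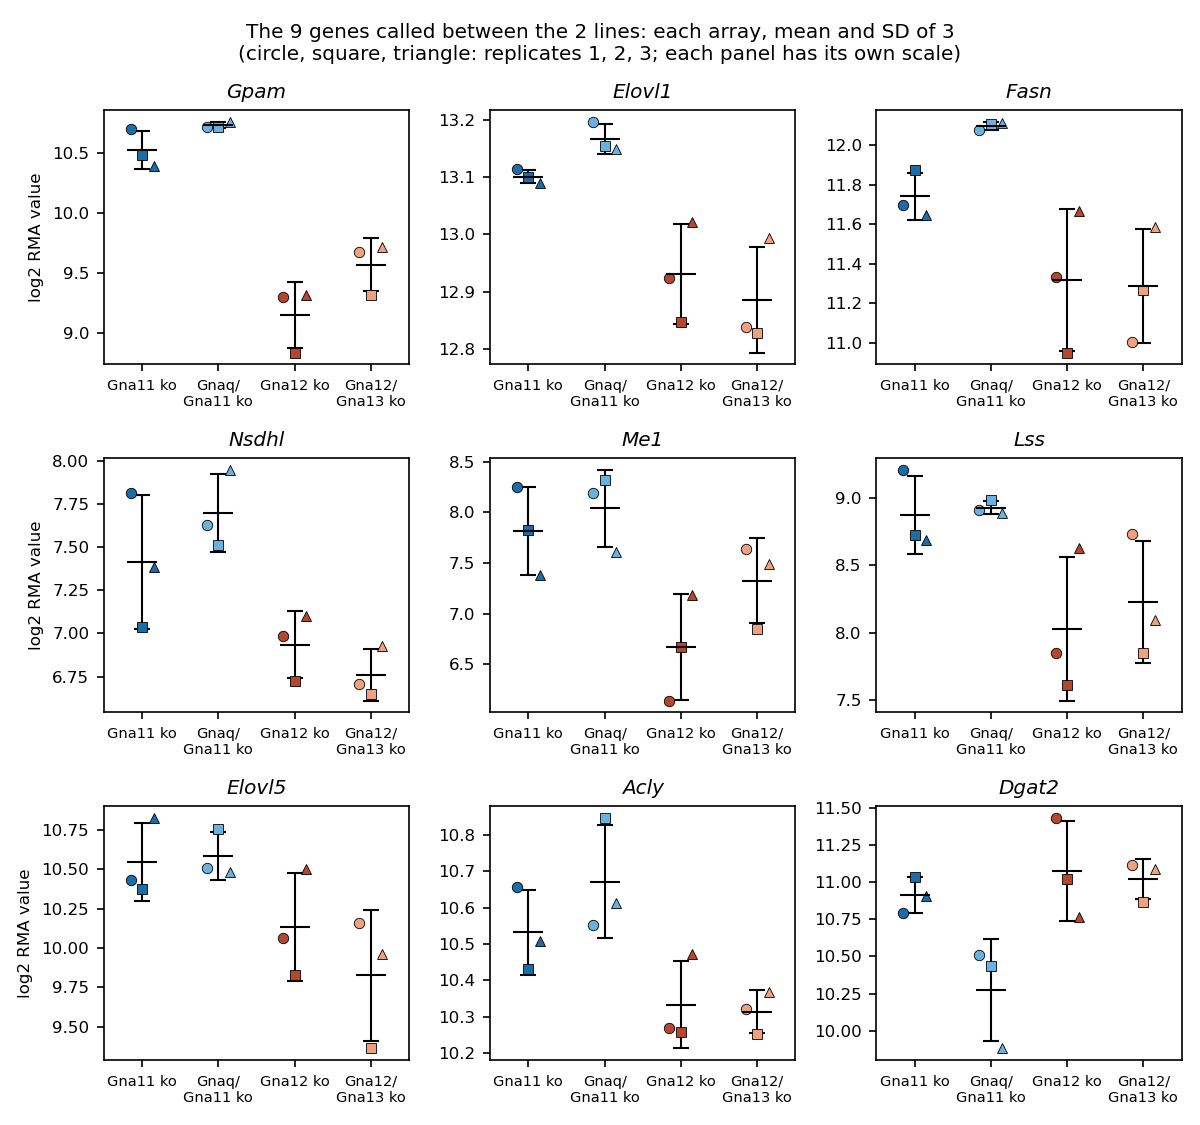
Log2 RMA value of the 9 called members in the 12 arrays; points are arrays, bars are the group mean and SD (n = 3), and each panel has its own scale. Gpam and Elovl1 show no overlap between the arrays without Gna11 and those without Gna12, and Dgat2 is lowest in Gnaq/Gna11 ko.

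The type II marker mean moved with the line, while the leukocyte mean was lower in every Gna11 ko array than in every other array. The mean of the 11 type II markers was 10.98 to 11.31 in the arrays without Gna11 and 10.38 to 10.81 in those without Gna12, and 6 of the 11 markers were called lower and none higher. The leukocyte mean ran from 9.25 to 10.63 in the former and from 10.22 to 11.10 in the latter, and 5 of 10 leukocyte markers were called higher. Between the double knockouts none of these 10 leukocyte markers was called, though markers of other cell types were. In bulk RNA, fewer cells of a type and less RNA per cell cannot be told apart. With the type II mean as a covariate, chosen after seeing the data, Gpam's difference was -0.58 ± 0.22 (adjusted p 0.795), and none of the 31 members and none of the 18193 genes was called. The median difference of the members was then 0.23 in place of -0.23. With the leukocyte mean as a covariate Gpam gave -1.12 ± 0.20 (adjusted p 0.079) and no member was called. Of all 18193 genes 18 were called in that fit, against 2244 in the main fit. The Gapdh 3' minus 5' difference, a sign of RNA length, was 3.70 ± 0.29 in Gna11 ko and 3.00 to 3.15 on average in the other groups. With it as a covariate Gpam was the only member called, at -1.03 (adjusted p 0.00666), and 146 of all genes were called. With Eif2s3y as a covariate, also chosen after seeing the data, 11 members and 2279 of all genes were called. Gpam gave -1.37 (adjusted p 0.000107).

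**Figure D3:**
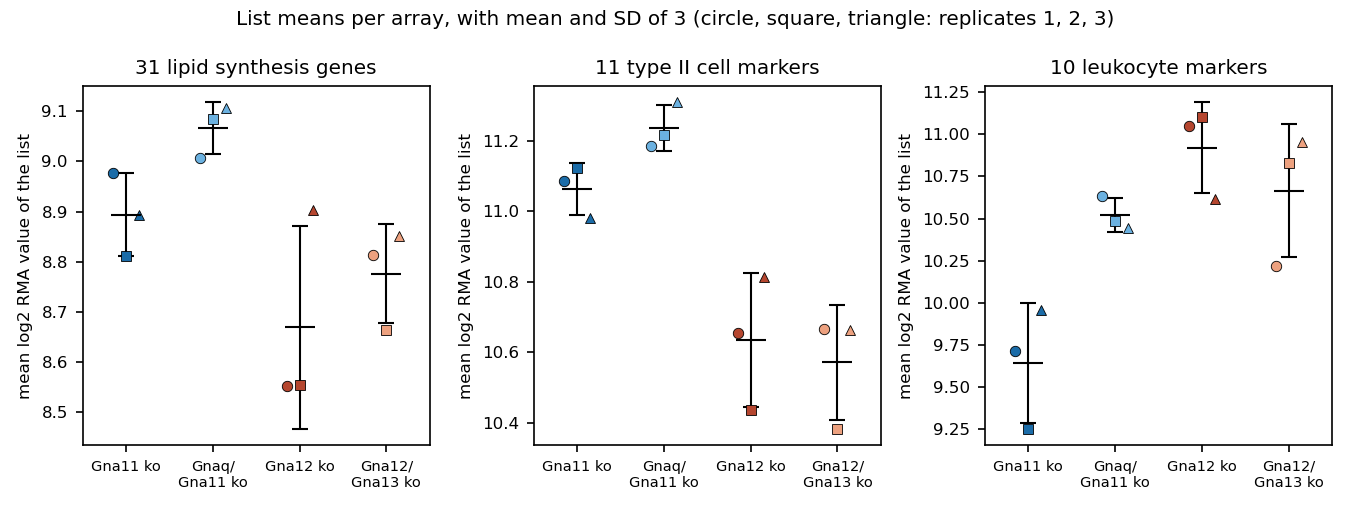
Mean log2 RMA value of the 31 members, of 11 type II markers and of 10 leukocyte markers in each of the 12 arrays (points), with the group mean and SD (bars, n = 3). The type II mean is 10.98 to 11.31 in the arrays without Gna11 and 10.38 to 10.81 in those without Gna12.

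Leaving out 1 array also changed the number of all genes called between the lines. The 2244 of the main fit became 1114 without Gna12/Gna13 ko replicate 2 and 1812 without Gna12 ko replicate 3. Over the 12 such fits the number was 1114 to 2313. The count of 9 members changed in the same fits. It was 3 without Gna12/Gna13 ko replicate 2, 4 without Gna11 ko replicate 1, Gnaq/Gna11 ko replicate 2 or Gna12 ko replicate 1 or 2, and 5 without Gnaq/Gna11 ko replicate 1 or 3; it was 6 to 12 without any of the other arrays, 12 being without Gna12 ko replicate 3, when Hmgcs1, Scd1 and Scd2 passed as well. Gpam, Elovl1 and Fasn were called in all 12 such fits and Nsdhl in 11, Me1 in 6, Lss in 4, Elovl5 in 3, Acly in 2 and Dgat2 in 2.

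Setting the double knockouts against each other gave 5 called members, 16.1% against 6.1% of all genes. Gpam differed by -1.16 ± 0.16 (Gna12/Gna13 ko minus Gnaq/Gna11 ko, adjusted p 0.00322), Elovl1 by -0.28 ± 0.052 (adjusted p 0.0114), Fasn by -0.81 ± 0.17 (adjusted p 0.0212) and Nsdhl by -0.94 ± 0.23 (adjusted p 0.0361). Dgat2 was higher by 0.75 ± 0.19 (adjusted p 0.0434). The 3 and 3 arrays did not overlap for 17 members, 54.8% against 28.4% of all genes. Lower in every Gna12/Gna13 ko array were 14 members (45.2%, against 15.5% of all genes), namely Hmgcs1, Mvd, Fdps, Lss, Nsdhl, Dhcr7, Stard4, Acly, Fasn, Scd2, Elovl1, Elovl5, Gpam and Dgat1, and higher were Sqle, Dgat2 and Pcyt1a. These counts use 1 probe set per gene. Of Hmgcs1's 5 probe sets 3 were higher and 2 lower in this comparison, from -0.67 to 0.15. Fdps, Dgat2 and Pcyt1a also had probe sets of either sign. The median difference was -0.32 over the members and -0.04 over all genes. The count was 1 to 4 when any of the 6 arrays was left out: 1 without Gna12/Gna13 ko replicate 2, 2 without Gna12/Gna13 ko replicate 1 or Gnaq/Gna11 ko replicate 2 or 3, and 3 without Gna12/Gna13 ko replicate 3. Over all genes these fits called 369 to 842, against 1109 in the main fit. With the type II mean as a covariate no member and none of the 18193 genes was called. The median difference of the members was then 0.30. These groups also differ in the Y-linked gene (3.33 to 3.54 in Gnaq/Gna11 ko, 3.07 to 7.37 in Gna12/Gna13 ko). The fibroblast marker mean did not overlap either (7.20 to 7.80 against 6.13 to 6.99). Of the single markers, 6 of 11 type II and 3 of 8 fibroblast markers were called lower in Gna12/Gna13 ko. Called higher were 2 of 6 epithelial, 1 of 8 airway and 1 of 10 macrophage markers. The part of other cell types in the members' differences was not tested.

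Between the single knockouts Gpam alone was called, 3.23% of members against 2.82% of all genes. It was lower in Gna12 ko by 1.37 ± 0.16 in log2, a 2.59-fold difference (adjusted p 0.00454). The arrays did not overlap for 6 members, 19.4% against 26.3% of all genes (15.9% lower and 10.3% higher): Lss, Me1, Scd1, Elovl1 and Gpam were lower in all Gna12 ko arrays and Mvd, the mevalonate diphosphate decarboxylase, was higher. Me1 differed by -1.15 (adjusted p 0.0888), Elovl1 by -0.17 (adjusted p 0.0984) and Fasn by -0.42 (adjusted p 0.195). Me1's second probe set went the other way, at 0.24, and 1 of Lss's 3 probe sets was positive, at 0.09. Gpam's call was lost with the leukocyte mean, the Gapdh difference or the type II mean as a covariate and in a fit of only these 6 arrays. With each of these covariates 0 of all 18193 genes were called, and 22 in the fit of 6 arrays, against 513 in the main fit. Without Gna12 ko replicate 3, 2 members and 368 of all genes were called. The single, double and pooled comparisons of the lines share arrays, so their differences are not independent of each other.

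**Figure D4:**
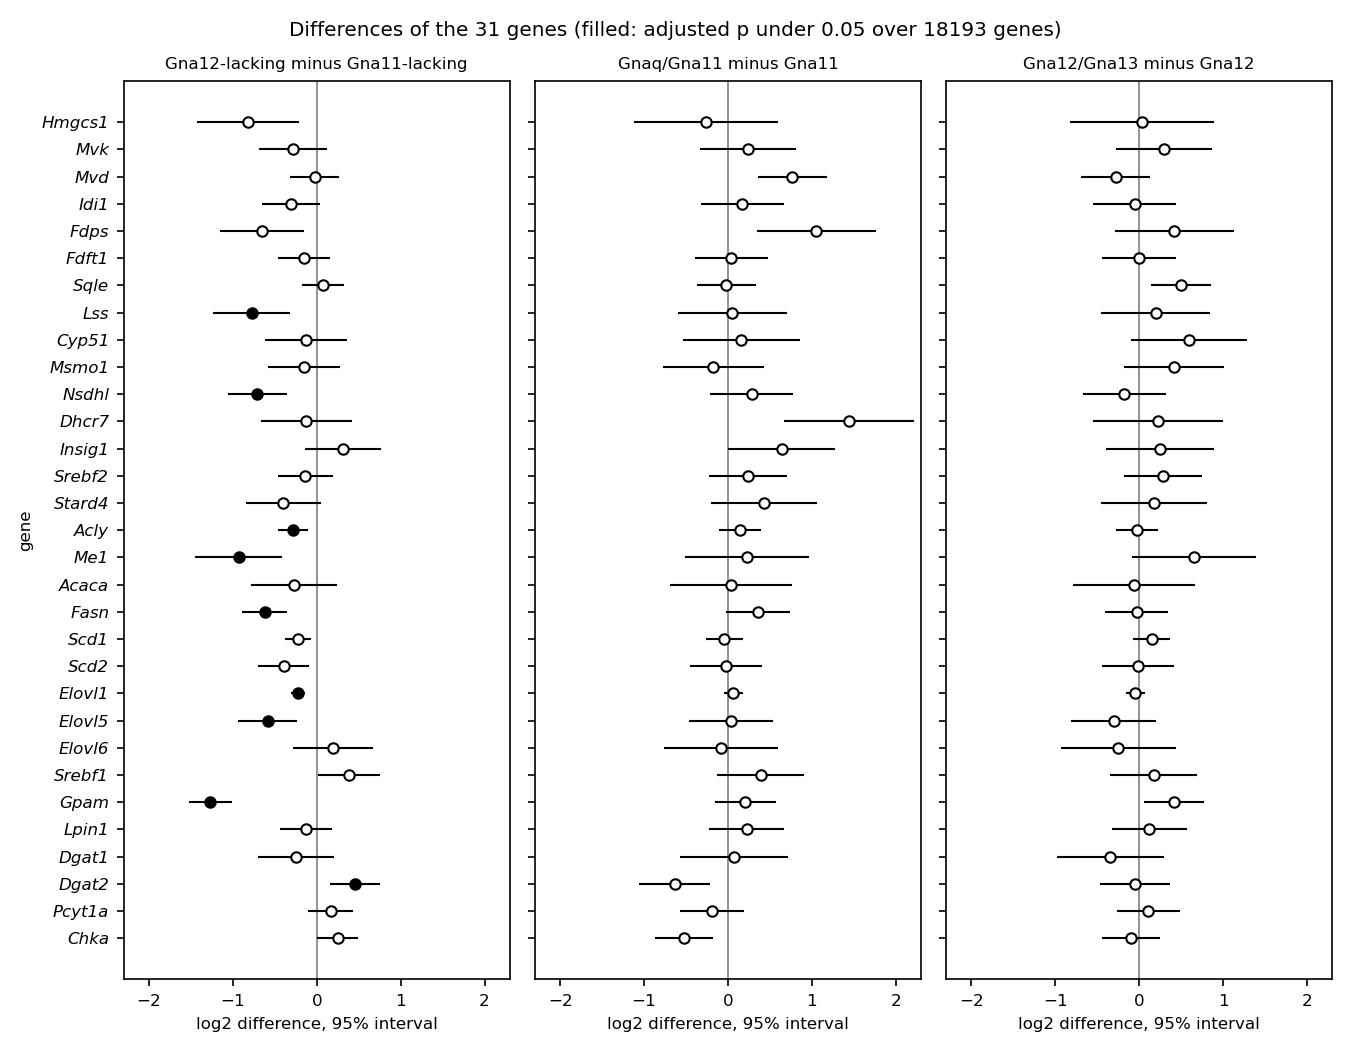
Log2 difference of each of the 31 members with its 95% interval from the limma fit, for the arrays without Gna12 minus those without Gna11 (left) and for each double minus its single knockout (middle and right); filled points passed an adjusted p under 0.05. Gpam lies furthest below 0 on the left, at -1.27, and no point is filled in the other panels.

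The loss of Gnaq on top of Gna11 gave no called member, 0 of 31, against 1.84% of all genes; 5 members had an unadjusted p under 0.05, 16.1% against 16.2% of all genes. The smallest adjusted p was 0.0667. The arrays did not overlap for 9 members (29%, against 19.7% of all genes, of which 9.87% higher and 9.83% lower), with Mvd, Fdps, Dhcr7, Stard4, Fasn, Elovl1 and Gpam higher and Dgat2 and Chka lower in every Gnaq/Gna11 ko array. Dhcr7, which makes cholesterol from its last precursor, was at 6.97, 6.85 and 7.23 in Gna11 ko and 8.30, 8.74 and 8.36 in Gnaq/Gna11 ko. Its difference of 1.45 ± 0.35 (2.73-fold) had an adjusted p of 0.0667. Mvd was at 10.11, 10.42 and 10.67 against 10.93, 11.24 and 11.35 (0.77 ± 0.19, adjusted p 0.068). Fdps was at 6.62, 5.48 and 6.20 against 7.26, 6.69 and 7.49 (1.05 ± 0.32, adjusted p 0.136), and Dgat2 differed by -0.64 (adjusted p 0.13). Differences were positive for 22 members, 71% against 45.4% of all genes, and the median was 0.14 against -0.03.

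The groups of this comparison also differ in other measures. The leukocyte mean (9.25 to 9.96 against 10.44 to 10.63), the macrophage mean (7.94 to 8.68 against 9.68 to 9.74) and the Gapdh difference (3.46 to 4.03 against 3.01 to 3.26) did not overlap. Neither did the means of the type II (10.98 to 11.12 against 11.18 to 11.31), fibroblast (6.41 to 6.92 against 7.20 to 7.80), endothelial (6.45 to 7.19 against 6.13 to 6.43) and airway markers (8.85 to 9.19 against 8.57 to 8.80). Of the single markers, 4 of 10 macrophage, 2 of 8 fibroblast and 1 of 10 leukocyte markers were called higher. With the type II mean as a covariate the median difference of the members was -0.01 in place of 0.14. The Y-linked gene was low in all 3 Gnaq/Gna11 ko arrays and in 1 Gna11 ko array. With Eif2s3y as a covariate Fdps (1.47 ± 0.27, adjusted p 0.0372) and Insig1 (1.08 ± 0.19, adjusted p 0.0344) were called higher. Over all genes 237 were called in the Eif2s3y fit, against 335 in the main fit. Without Gna11 ko replicate 3, 1 member and 375 of all genes were called. Another Elovl1 probe set was at 7.03, 8.12 and 7.61 in Gna11 ko and 9.51, 9.19 and 9.14 in Gnaq/Gna11 ko, a difference of 1.69 ± 0.30 (adjusted p 0.0311 over probe sets), where Elovl1's main probe set gave 0.06. Of Elovl1's 4 probe sets 1 went the other way, by -0.22. It was at 11.6, 11.71 and 11.47 in Gna11 ko and 11.49, 11.32 and 11.31 in Gnaq/Gna11 ko. Fdps and Gpam also had probe sets of either sign here.

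The loss of Gna13 on top of Gna12 gave no called member and no called gene at all, 0 of 31 against 0 of 18193, or 0%. At an unadjusted p under 0.05 the counts were 2 members, Sqle and Gpam (6.45%), and 820 genes (4.51%). Sqle, the squalene epoxidase, was at 8.29, 8.70 and 8.74 in Gna12 ko and 9.19, 9.07 and 8.97 in Gna12/Gna13 ko, a difference of 0.50 ± 0.16 whose adjusted p was 1. Sqle and Msmo1 were the 2 members without overlap, both higher, 6.45% against 11.3% of all genes (6.4% higher). Msmo1 was at 5.68, 5.60 and 5.85 against 6.08, 5.96 and 6.34. Gpam differed by 0.42 (95% interval 0.06 to 0.78) with overlapping arrays, and Fasn by -0.03 (95% interval -0.41 to 0.35). The median difference of the members was 0.11, against -0.00034 over all genes.

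Whether the second deletion changed the members differently in the Gq/11 and G12/13 lines was tested as the difference of the differences. None of the 31 members was called, against 0.0715% of all genes (13 genes), and 3 members had an unadjusted p under 0.05 (9.68%, against 10.8%). Mvd gave 1.05 ± 0.27 (adjusted p 0.168), Dhcr7 1.22 ± 0.50 (adjusted p 0.388) and Sqle -0.51 ± 0.23 (adjusted p 0.45).

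The members varied together between replicates of some groups. Gna12 ko replicate 3 was the highest of its group for 23 of 31 members, 74.2% against 32.1% of all genes, and Gna12/Gna13 ko replicate 2 was the lowest of its group for 19, 61.3% against 29.7%. The mean over all members was 8.55, 8.55 and 8.90 in Gna12 ko and 8.81, 8.66 and 8.85 in Gna12/Gna13 ko. It was 8.98, 8.81 and 8.89 in Gna11 ko and 9.01, 9.09 and 9.11 in Gnaq/Gna11 ko, so Gna12 ko replicate 3 and Gna12/Gna13 ko replicates 1 and 3 lay within the range of the arrays without Gna11. The type II mean was also highest of its group in Gna12 ko replicate 3 (10.81, against 10.66 and 10.44) and lowest in Gna12/Gna13 ko replicate 2 (10.38, against 10.67 and 10.66). The Y-linked gene was at 6.91, 3.30 and 7.37 in Gna12 ko replicates 1 to 3 and at 7.37, 3.07 and 7.35 in Gna12/Gna13 ko. In Gna12 ko replicates 1 and 2 it thus differed while the mean over all members was 8.55 in both. The part of these measures in the members' order was not tested. The median residual SD was 0.27 over the members and 0.23 over all genes.

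**Figure D5:**
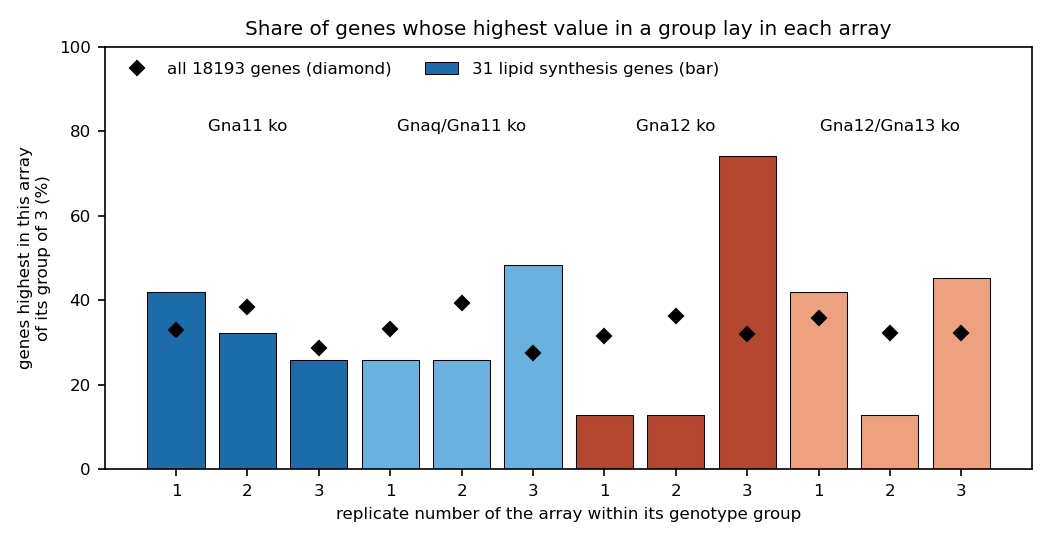
Share in percent of the 31 members (bars) and of all genes (diamonds) for which a given array is the highest of its group of 3. Gna12 ko replicate 3 is the highest for 74.2% of members and 32.1% of all genes.

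Genes of the same pathways outside the 31 were read from lists, beside the 12.3% of all genes called in this comparison (6.48% higher and 5.86% lower). Of 10 measured sterol synthesis genes, 4 were lower in the arrays without Gna12 and none higher (40% called). Sc5d (-0.81), Tm7sf2 (-0.68) and Pmvk (-0.20) are enzymes of the pathway, and Insig2 (-0.68) encodes a second INSIG protein. Tm7sf2 was at 7.06, 7.69 and 7.64 in Gna11 ko, 8.19, 8.02 and 8.14 in Gnaq/Gna11 ko, 6.82, 7.21 and 7.42 in Gna12 ko, and 6.66, 7.07 and 7.47 in Gna12/Gna13 ko, so the Gnaq/Gna11 ko arrays stood above the rest. Of 17 measured fatty acid synthesis genes 4 were lower and 2 higher (35.3% called). Elovl7, an elongase, was at 8.371 to 9.001 in the arrays without Gna11 and 6.99 to 7.88 in those without Gna12, a difference of -1.25 (adjusted p 0.00172). Fads2 (-0.95) and Fads1 (-0.83), the desaturases of polyunsaturated fatty acids, and Slc25a1 (-0.80), the citrate carrier that feeds Acly, fell too. The genes that rose, named after their values were seen, were Acsl3 (0.61), an acyl-CoA synthetase, and Pgd (0.42), an enzyme of the pentose phosphate pathway that supplies NADPH. Of 23 glycerolipid genes 2 were lower, Agpat2 (-0.63) and Lpcat1 (-0.60), and 2 higher, Agpat4 (0.69) and Gpat3 (0.36), or 17.4% called. Agpat2 makes phosphatidic acid from the product of Gpam's reaction, and Lpcat1, which remodels surfactant phosphatidylcholine, is also among the type II markers.

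The same lists were read in the other comparisons. Between the double knockouts, where 6.1% of all genes were called, 2 of 10 sterol genes fell, Tm7sf2 (-1.05) and Pmvk (-0.41), and none rose. Of 17 fatty acid genes 4 fell, Elovl7 (-1.39), Fads2 (-1.15), Fads1 (-1.10) and Slc25a1 (-1.08), and 2 rose, Acsl3 (1.06) and Pgd (0.42). Of 23 glycerolipid genes 2 fell, Agpat2 (-0.95) and Lpcat1 (-0.78), and none rose. Between the single knockouts Insig2 (-1.07) and Elovl7 (-1.11) fell and Pgd (0.43) rose. In Gnaq/Gna11 ko against Gna11 ko the fatty acid synthesis gene Acss2, which makes acetyl-CoA from acetate, fell by 0.80 (adjusted p 0.0454). None was called in Gna12/Gna13 ko against Gna12 ko.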

How the data were processed

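The authors deposited log2 values after RMA normalisation for 45101 probe sets of an Affymetrix mouse array, per the labels; base 2 is taken from the range of the values, and no software version is stated in the labels. Per the labels' protocols, 10 ng of total RNA was amplified. Genes were named from the platform annotation, with symbols updated for 34741 of 34945 probe sets with 1 gene through the GRCm38.p6 RefSeq table; 64 control probe sets, 932 with several genes and 9160 with none were left out. A linear model over all 12 arrays (limma 3.58.1 under R 4.3.3; two-sided moderated tests whose prior follows the mean level; degrees of freedom 8 residual and 3.19 prior) gave 6 comparisons, with Benjamini-Hochberg adjustment over 18193 genes and a threshold of 0.05. The lines were compared as the mean of both groups of each line. The script was tested on simulated data. Arrays carry no read depth; their number, 3 in a group, limits the precision, and an exact permutation test of 3 against 3 cannot go below 0.1. The members and lists were chosen with earlier results of these data known. All members are named; of each related list the up to 4 called genes with the largest difference per comparison are named. Of 196 list entries 185 were measured; the others are not analysed here. Motifs were searched on both strands of RefSeq promoter windows. Alternatives were other probe set rules, filters, priors, weights, normalisations, covariates and arrays left out; the type II and Eif2s3y covariates were chosen after seeing the data.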

Additional observations from a re-analysis of the deposited data

How the results depend on the processing

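Counts of the 31 members called were recomputed under 15 alternatives and with each array left out. For Gnaq/Gna11 ko against Gna11 ko, 0 became 1 with every probe set tested (a member counted where any of its probe sets was called; here Elovl1, by a probe set other than its main one), 2 after dropping genes below the median level, 2 with Eif2s3y as covariate, 2 at a threshold of 0.1, and 3 with the replicate block (Mvd 0.0188, Fdps 0.0295, Dhcr7 0.0481 as limma adjusted p); leaving out 1 array gave 0 to 1. The labels do not say what the replicate numbers stand for, and they were not taken as pairing the samples, since not every correlation was above 0.1: over 18 pairs of samples with the same number the correlation of deviations was -0.0375 to 0.271, above 0.1 in 6, and the own number was best in 14, which is a hint from the data of shared numbers and not from the design. With the block the lines gave 10 and the double knockouts 7. Over all genes the block gave 309 for Gnaq/Gna11 ko against Gna11 ko, 2357 between lines and 1090 between double knockouts. For Gnaq/Gna11 ko against Gna11 ko, 342 of 45037 were called with every probe set tested. At or above the median level 429 of 9097 genes were called. Of 18193 genes 237 were called with Eif2s3y and 689 at a threshold of 0.1, against 335 in the main fit. Leaving out 1 array gave 102 to 375 genes. Between single knockouts, 1 became 0 in a fit of only the arrays compared and with the leukocyte, Gapdh or type II covariate. It became 3 at a threshold of 0.1. Over all genes, 513 became 22 in that fit, 0 with each of these covariates and 1348 at that threshold. Leaving out 1 array gave 1 to 2 members and 62 to 736 genes. Between double knockouts, 5 became 3 without the intensity trend, 0 with the type II covariate and 8 with Eif2s3y. Over all genes, 1109 became 1035, 0 and 1216 in these fits. Leaving out 1 array gave 1 to 4 members and 369 to 842 genes. Between lines, 9 became 0 with the leukocyte or type II covariate and 1 with the Gapdh covariate. Over all genes, 2244 became 18 with the leukocyte, 0 with the type II and 146 with the Gapdh covariate. Leaving out 1 array gave 3 to 12 members and 1114 to 2313 genes. In that comparison the median difference over all 31 members went from -0.23 to 0.23 with the type II covariate, against -0.06 over all genes. Of the members called lower in the main fit, Lss (0.38, SE 0.44, adjusted p 0.889) and Elovl5 (0.23, SE 0.36, adjusted p 0.924) changed sign with it. The type II means do not overlap between the lines. The cause was not tested. Under every alternative run, no member was called in Gna12/Gna13 ko against Gna12 ko or in the difference of the differences. Few genes of any kind were called in these fits. The number over all genes was 0 to 3 in the former and 0 to 89 in the latter, 89 being at a threshold of 0.1. Quantile normalisation, median centring and the robust prior gave 8 or 9 between lines, and 2152, 2139 and 2235 over all genes.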

Other observations

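Lists of genes that burn, take up or export lipid were read between the arrays without Gna12 and those without Gna11, where 12.3% of all genes were called, 6.48% higher and 5.86% lower. Of 14 measured fatty acid oxidation genes 3 were higher in the arrays without Gna12 and none lower (limma, adjusted p under 0.05): Pdk4 (2.06, adjusted p 0.00193), a kinase that holds back pyruvate oxidation, Ppargc1a (0.95), a coactivator of mitochondrial genes, and Hadhb (0.84). Pdk4 was at 7.54 to 8.91 in the arrays without Gna11 and 9.61 to 10.74 in those without Gna12, with no overlap. Of 13 uptake genes 3 were higher and 3 lower, among them Fabp4 (2.00), Lpl (1.33), Lrp1 (0.97) and Vldlr (-0.81). Of 11 sterol efflux and lysosomal genes 2 were higher, Lipa (0.88) and Abcg1 (0.88), and Npc2 was lower (-0.10). Fabp4, Lpl, Lipa and Abcg1 are also expressed by macrophages, and 5 of 10 leukocyte markers were higher in the same comparison; the part of other cell types in these differences was not tested.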
